A study of Homo sapiens with 2 samples.

Results

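Small heat shock proteins and the chaperone machinery that hands their clients to autophagy were measured in a pair of stable cell lines made from MDA-MB-231. The parent line comes from a human breast cancer of the triple-negative type and has a mesenchymal phenotype. The genes were HSPB1, HSPB8, CRYAB, HSPA1A, HSPA8, DNAJB1, BAG3, STUB1, SQSTM1 and HSF1, a group chosen by function around HSPB8, which was selected on its measured difference between these arrays. Probe sets, the groups of oligonucleotide probes that each report 1 transcript or a few, were taken where the platform annotation gave exactly 1 of these symbols. This found 17 probe sets for 8 of the 10 genes, out of 41091 probe sets and 19775 genes with a single symbol. HSPA1A and HSPA8 had no probe set of their own (0 for each). One line had been infected with a control virus carrying an empty vector and the other with a virus that overexpresses miR-203, a microRNA. Both lines are MDA-MB-231 and were grown in the same medium, DMEM with 10% FBS. Each was measured on 1 Affymetrix array, and the labels do not say whether the lines are clones or pools. The values are log2 expression values made with RMA, and every difference is the log2 value in the miR-203 line minus that in the empty-vector line, so that -1 is 2-fold lower. With 1 array per line there was no replicate error, no test was made, and no difference has a replicate check.

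Small heat shock proteins bind unfolding clients and hold them soluble without using ATP. Clients that cannot be refolded by HSP70 chaperones and their J-domain partners are passed to degradation: HSPB8 binds BAG3, BAG3 links it to HSP70, the ubiquitin ligase STUB1 (CHIP) tags the client, and the receptor SQSTM1 (p62) ties the ubiquitin chain to the growing autophagosome. HSF1 is the transcription factor that raises many chaperone genes under heat and proteotoxic stress by binding repeats of nGAAn, the heat shock element. A microRNA lowers mRNAs and their translation by pairing, chiefly through its seed, with sites in them.

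The sequence of the overexpressed microRNA is shown because it is the agent that distinguishes the lines. The labels name miR-203 without an arm, and the 3p arm of MIR203A in RefSeq, at chr14:104117469-104117490 on the plus strand of GRCh38.p14, is given 5′ to 3′ with its seed (bases 2 to 8) in capitals.
hsa-miR-203a-3p: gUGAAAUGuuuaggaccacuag
It was the 1 mature human microRNA in that table with this seed. The annotation held 0 probe sets for the gene of miR-203, so these arrays do not report its level, and sites for the seed in the mRNAs were not analysed here.

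The promoters of HSPB8, HSPB1 and DNAJB1 are shown because these 3 heat shock genes carry pairs of the HSF1 unit and were measured at different distances from 0 in the comparison of the lines. Each line gives the 200 bases before the transcription start in RefSeq, 5′ to 3′ in the direction of the gene, on GRCh38.p14. Capitals mark GAANNTTC, a pair of facing units, which reads the same on both strands. The HSPB8 stretch lies at chr12:119178731-119178930 on the plus strand, that of HSPB1 at chr7:76302473-76302672 on the plus strand, and that of DNAJB1 at chr19:14518398-14518597 on the minus strand.
HSPB8: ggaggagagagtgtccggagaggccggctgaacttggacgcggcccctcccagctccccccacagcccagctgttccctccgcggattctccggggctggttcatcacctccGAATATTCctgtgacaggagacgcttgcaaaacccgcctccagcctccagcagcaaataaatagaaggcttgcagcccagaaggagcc
HSPB1: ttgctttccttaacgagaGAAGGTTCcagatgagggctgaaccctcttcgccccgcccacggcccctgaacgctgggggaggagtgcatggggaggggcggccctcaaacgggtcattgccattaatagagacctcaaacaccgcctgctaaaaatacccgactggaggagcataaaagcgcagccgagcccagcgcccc
DNAJB1: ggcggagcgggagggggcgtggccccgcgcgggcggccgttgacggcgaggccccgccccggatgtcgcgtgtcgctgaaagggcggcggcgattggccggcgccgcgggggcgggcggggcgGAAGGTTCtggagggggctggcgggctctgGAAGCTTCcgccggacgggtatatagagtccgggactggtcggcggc
The HSPB8 match in the stretch shown, GAATATTC, begins 88 bases before the start, and HSPB8 has another, GAAGTTTC, just after the start. HSPA1A has the same 8 letters as the first, beginning 106 bases before its start. HSPB1 has GAAGGTTC beginning 182 bases before its start, and DNAJB1 has that match and GAAGCTTC beginning 77 and 47 bases before this start, which is 1 of 3 starts listed for the gene. Over the windows from 250 bases before to 50 after a start, GAANNTTC was found for 5 of the 7 genes of the group in the table, namely HSPB1, HSPB8, HSPA1A, HSPA8 and DNAJB1, and for BAG3 and SQSTM1 it was not. It occurred for 8.21% of all 27305 genes in the table and in 6.77% of its 35116 windows, as some genes have several starts. Other arrangements of the unit were not scanned, so a gene without GAANNTTC may still carry pairs of the unit. These matches are letters in a window and say nothing of binding in these cells.

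HSPB8 was lower in the miR-203 line, by 1.23 on the log2 scale or 2.34-fold, and it was the 1 gene past 2-fold. The other genes of the group lay closer to 0: DNAJB1 was at 0.033, STUB1 at -0.077, HSPB1 at -0.14, HSF1 and SQSTM1 each at -0.21, BAG3 at -0.30 and CRYAB at -0.54 by the brightest probe set of each. The filter on low values kept a gene if the higher of its values reached 5.37, the median over all probe sets. It was passed by 7 of the 8 genes, and CRYAB did not pass. Of the 7, 1 was 2-fold or more lower and 0 were 2-fold or more higher. Among all 13311 genes that passed, 0.27% were 2-fold or more lower and 0.105% were 2-fold or more higher. Since the group was drawn up knowing that HSPB8 was lower, its count is a description. By sign, 7 of the 8 genes were below 0, where 45.7% of all 19775 genes were, and 15 of the 17 probe sets were below 0, where 46.2% of the 41091 probe sets were. Probe sets of 1 gene report the same RNA, so these are not 15 separate outcomes. The 7 genes include HSPB8, selected on its difference, and CRYAB, which did not pass. Probe sets that HSPA1A and HSPA8 share with other genes are not in these counts. Those listing HSPA8 were all above 0, and those listing HSPA1A lay on both sides of 0. The median of the 8 genes was -0.21, also -0.21 without HSPB8, against 0 over all 19775 genes.

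**Figure D1:**
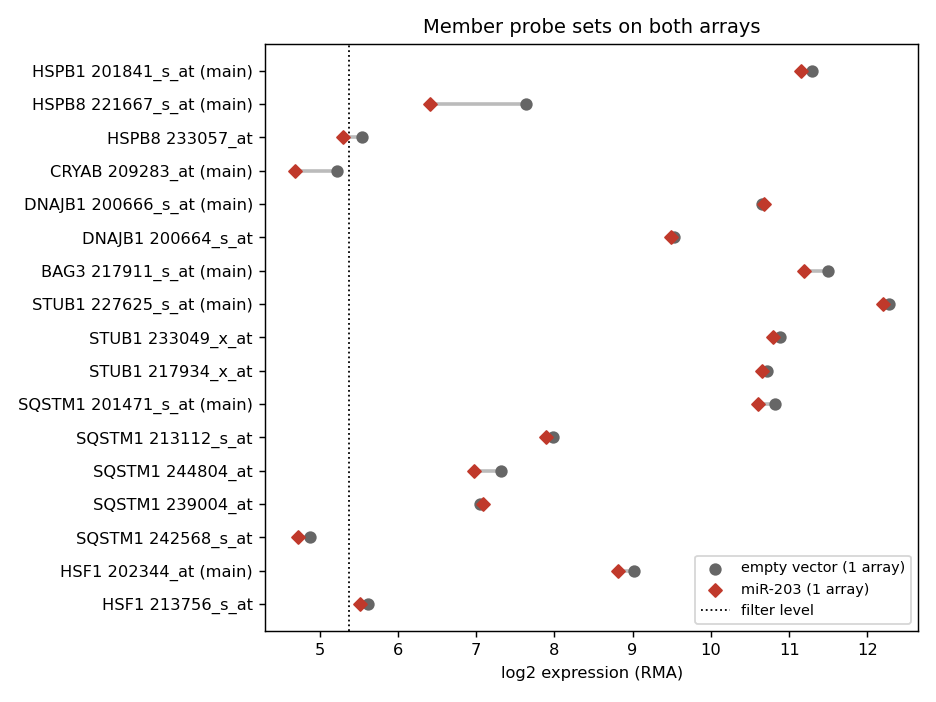
Log2 expression (horizontal axis) of the 17 probe sets of the 8 genes, with a grey circle for the empty-vector array and a red diamond for the miR-203 array; the dotted line is the filter level. The longest gap is that of the main HSPB8 probe set, from 7.64 to 6.41, while the 2 DNAJB1 probe sets nearly coincide on both arrays.

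Among the small heat shock proteins, HSPB8 (HSP22), the partner of BAG3, was measured by 2 probe sets. The brighter, 221667_s_at, gave 7.64 with the empty vector and 6.41 with miR-203. Both values lay above the filter level. The dimmer, 233057_at, gave 5.55 and 5.29, so that its miR-203 value fell under that level, and its difference was -0.25. Both probe sets were thus lower in the miR-203 line, but by amounts that differed by 0.98. A gap at least that large was found for 12 (0.335%) of the 3583 genes with 2 probe sets past the filter, HSPB8 included. The median gap of those genes was 0.13, so the HSPB8 probe sets disagreed unusually in size. As a description of where the HSPB8 values lay, each probe set was set beside the 500 probe sets nearest to it in mean level. For 221667_s_at the middle 95% of these ran from -0.47 to 0.41 and 1 of the 500 was lower. For 233057_at it ran from -0.38 to 0.42 and contained the probe set. By size of difference 17 of the 13311 genes exceeded HSPB8. HSPB8 was selected on its difference between these same arrays, so this rank and the place of 221667_s_at among its neighbours follow from the selection and lend the difference no support. The 2-fold call rests on the brighter probe set: by the median or the mean over both HSPB8 was at -0.74, and leaving out the less specific _x_at and _s_at types of probe set it was at -0.25. What each probe set detects of the HSPB8 transcript was not analysed here.

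HSPB1 (HSP27), the abundant small heat shock protein of many carcinomas, gave 11.29 with the empty vector and 11.15 with miR-203 by its 1 probe set, a difference of -0.14. This lay inside the -0.30 to 0.40 of probe sets of similar level. CRYAB (alpha-B crystallin), a small heat shock protein of lens and muscle that is also expressed in some basal-like breast cancers, gave 5.22 and 4.69. Its difference of -0.54 lay below the range of its neighbours, -0.46 to 0.49, with 7 of 500 lower. Both CRYAB values were under the filter level, and RMA gives no detection calls, so whether CRYAB was expressed in either line cannot be read from them. Of the 3 genes, HSPB8 was the one measured above the filter level and past 2-fold. HSPB1 lay inside the range of its neighbours, and CRYAB was under the filter level, so no shared decrease of the 3 can be read from these values.

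Of the wider small heat shock protein family, 10 of 11 listed genes had a probe set of their own and 5 passed the filter, with a median of -0.11, 3 below 0 and 2 above. Beside HSPB1 and HSPB8 these were HSPB2 at 0.23, ODF1 at 0.23 and CRYAA, a lens crystallin, at -0.11. HSPB2 gave 5.95 with the empty vector and 6.18 with miR-203, CRYAA 5.42 and 5.31, and ODF1, a sperm tail protein, 5.21 and 5.44. These values lay near the filter level on both arrays, and the empty-vector value of ODF1 and the miR-203 value of CRYAA were below it. Those 3 genes had 1 probe set each.

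**Figure D2:**
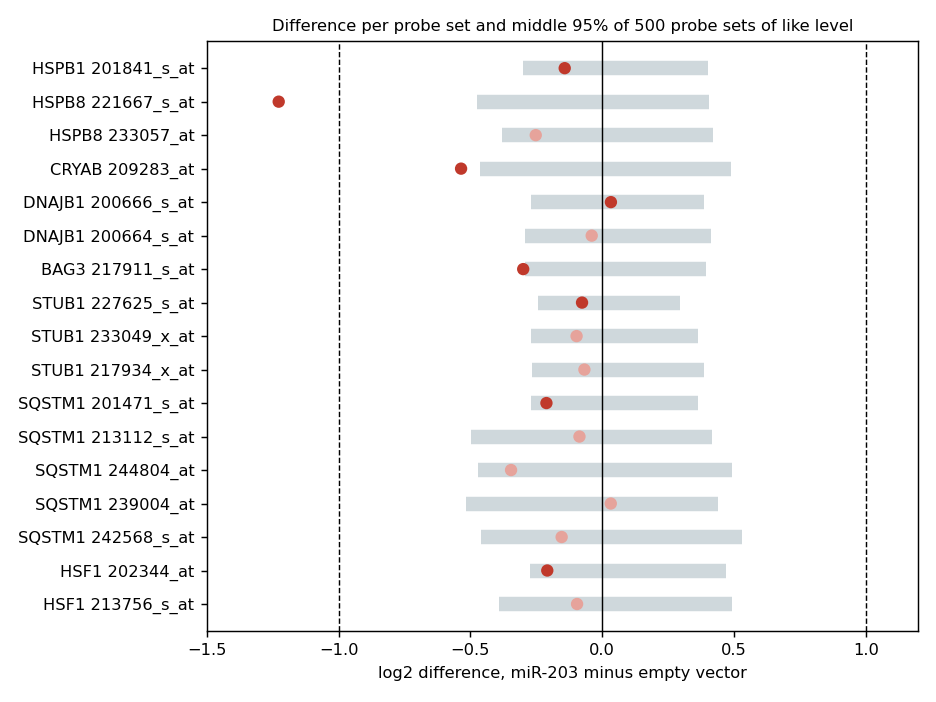
Log2 difference, miR-203 minus empty vector (horizontal axis), for each of the 17 probe sets, in dark red for the brightest probe set of a gene and in pale red for the others. Grey bars are the middle 95% of the 500 probe sets nearest in mean level, dashed lines mark 2-fold, and 3 probe sets, for HSPB8, CRYAB and BAG3, lie to the left of their bar.

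BAG3, the nucleotide exchange factor that couples HSPB8 to HSP70 and to dynein transport, gave 11.49 with the empty vector and 11.19 with miR-203 by its 1 probe set. The difference of -0.30 was 1.23-fold lower. It lay at the edge of its neighbours' range, -0.29 to 0.39, with 10 of 500 lower. On the list of BAG proteins and exchange factors 9 genes passed, with a median of 0.11. Of the 8 other than BAG3, 3 were below 0 and 5 above, and their median was 0.13. BAG4, which binds the death domain of TNF receptors, was at 0.31 and BAG5 at 0.25, and HSPBP1, which also binds HSP70, was at -0.18. The 3 probe sets of BAG4 ran from -0.046 to 0.50 and those of BAG5 from 0.033 to 0.25.

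The HSP70 chaperones HSPA1A, the heat-inducible form, and HSPA8, the constitutive form, could not be given values of their own. Every probe set listing HSPA1A also listed HSPA1B, a near-identical copy, and 1 of the 3 listed HSPA1L as well. These shared probe sets disagreed in sign. Probe set 202581_at gave 10.42 with the empty vector and 10.06 with miR-203 (-0.36). Probe set 200800_s_at gave 9.98 and 9.78 (-0.21). Probe set 200799_at gave 9.01 and 9.21 (0.20). No direction for inducible HSP70 mRNA could be read from them. The 4 probe sets listing HSPA8 also listed SNORD14C and SNORD14D, small nucleolar RNA genes. Their differences were all above 0 and small, from 0.016 to 0.066, at levels from 13.33 to 13.68. Of the HSP70 and HSP110 list, 13 genes passed, with 3 below 0 and 10 above and a median of 0.057. HSPA4L, an HSP110-type chaperone, was highest at 0.56 by its brighter probe set and 0.14 by the other, and HSPA1L was lowest at -0.31. HSPH1 (HSP105) was at 0.23, with 3 probe sets from -0.030 to 0.23.

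DNAJB1 (HSP40), the J-domain partner that loads clients on HSP70, had nearly equal values on both arrays. Probe set 200666_s_at gave 10.65 with the empty vector and 10.68 with miR-203, and 200664_s_at gave 9.53 and 9.49. The differences, 0.033 and -0.040, had opposite signs and lay well inside the ranges of their neighbours. The J-domain list had 20 genes that passed, 7 below 0 and 13 above, with a median of 0.043. DNAJC13, an endosomal J protein, was at 0.26, DNAJA1 at 0.25 and DNAJA4 at -0.25. The 3 probe sets of DNAJC13 ran from -0.25 to 0.26 and the 4 of DNAJA4 from -0.25 to 0.091, with 1 of each past the filter. DNAJA1, a cytosolic partner of HSP70, had its 2 probe sets at 0.12 and 0.25.

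HSF1, the stress-activated transcription factor, gave 9.02 with the empty vector and 8.81 with miR-203 by 202344_at, and 5.61 and 5.52 by 213756_s_at. The differences were -0.21 and -0.096, both inside the ranges of their neighbours, of which 36 and 169 of 500 were lower. HSF1 mRNA is not a measure of HSF1 activity, which is controlled mainly on the protein. Of 18 listed heat-inducible HSF1 target genes, 12 passed the filter. With 5 below 0 and 7 above, they had a median of 0.027 and ran from -0.30 for BAG3 to 0.25 for DNAJA1, and none was past 1.5-fold (0 lower, 0 higher). At that threshold 1.08% of the genes that passed were lower and 0.721% higher, so a count of 0 among 12 says nothing about the list. HSPD1, the mitochondrial chaperonin HSP60, was at 0.12, with 5 probe sets from -0.12 to 0.27. HSPB8 was not on that list. Of HSF1 partners, the acetyltransferase EP300 was at -0.26, with probe sets at -0.26 and -0.23, and the deacetylase SIRT1 was at 0.11. HSF2BP, on the same list of heat shock factors and HSF1 partners, was at 0.22. Of the 7 genes of that list that passed, 2 were below 0, and the median was 0.051.

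STUB1 (CHIP), the ubiquitin ligase that docks on HSP70, had 3 probe sets that lay close together. They gave 12.27 with the empty vector and 12.19 with miR-203 by 227625_s_at, 10.89 and 10.79 by 233049_x_at, and 10.72 and 10.65 by 217934_x_at. The differences ran from -0.097 to -0.068, all inside the ranges of their neighbours. Of the list of quality-control ligases and VCP, 12 genes passed, with a median of -0.025, 7 below 0 and 5 above. UBR1, a ligase that reads N-terminal degrons and misfolded cytosolic proteins, was the 1 gene past 1.5-fold, from 8.28 to 7.49, a difference of -0.79. Its other probe set gave 0.087, the opposite sign. Among all genes that passed, 1.08% were 1.5-fold or more lower and 0.721% higher, so a count of 1 says nothing about the list. VCP, the segregase that extracts ubiquitinated proteins, was at -0.25 with its other probe set at -0.20, and the deubiquitinase ATXN3 was at 0.25 with 7 probe sets from -0.50 to 0.39.

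SQSTM1 (p62), the autophagy receptor, had 5 probe sets. The brightest, 201471_s_at, gave 10.81 with the empty vector and 10.60 with miR-203. Probe set 213112_s_at gave 7.98 and 7.89, and 244804_at gave 7.31 and 6.97. Probe set 239004_at gave 7.05 and 7.09, and 242568_s_at, under the filter level, gave 4.87 and 4.72. The differences ran from -0.35 to 0.032, with 4 below 0 and 1 above, and all 5 lay inside the ranges of their neighbours. SQSTM1 was 1.16-fold lower by its main probe set, and it had the lowest difference among the selective autophagy receptors listed.

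The other selective autophagy receptors mostly lay on the other side of 0. Of the 12 genes on that list 12 passed, with 9 above 0, 2 below and a median of 0.21, where all genes that passed had a median of 0.013. TAX1BP1, a receptor for ubiquitinated cargo, went from 9.33 to 9.76, a difference of 0.43, with 3 probe sets from 0.22 to 0.43. BNIP3L (NIX), a receptor for mitochondria, went from 9.73 to 10.16, with probe sets at 0.36 and 0.43. OPTN (optineurin), a receptor for ubiquitinated cargo, was at 0.27 and 0.44. None of the 12 was past 1.5-fold (0 higher, 0 lower). At that threshold 0.721% of the genes that passed were higher and 1.08% lower, so this count says nothing about the list. By sign, 45.7% of all 19775 genes, passing or not, were below 0. The core autophagy machinery had 30 genes that passed, 19 above 0 and 10 below, with a median of 0.096. PIK3C3 (VPS34), the lipid kinase of autophagosome formation, was at 0.39, RB1CC1 (FIP200), a scaffold of the ULK complex, at 0.35 and the protease ATG4A at 0.34. PIK3C3 had 1 of its 7 probe sets past the filter.

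**Figure D3:**
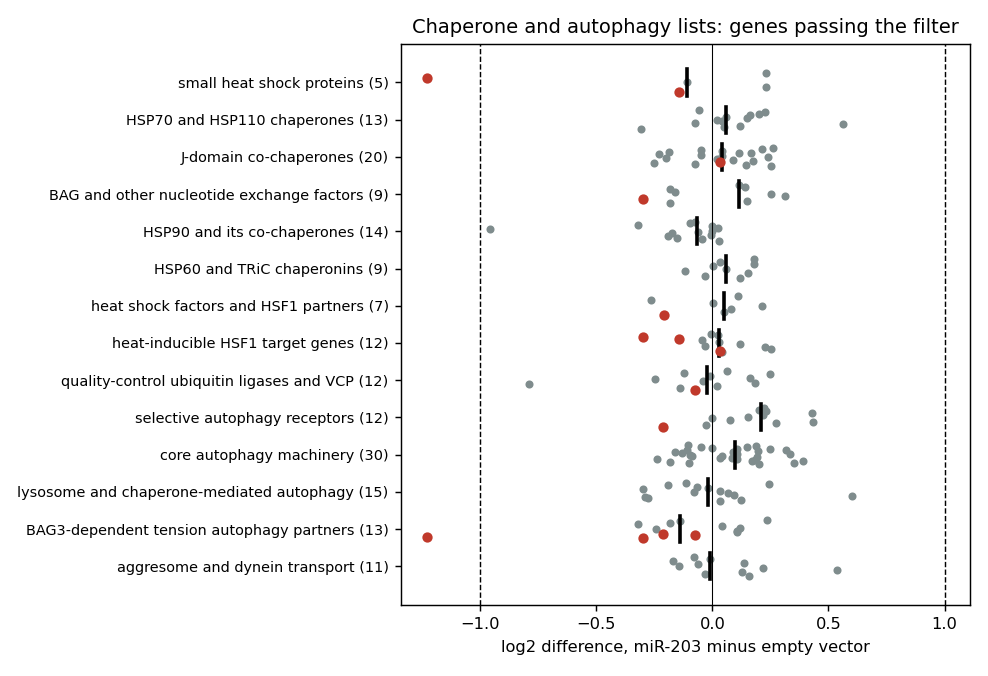
Log2 difference, miR-203 minus empty vector (horizontal axis), of the genes that passed the filter in each of 14 chaperone and autophagy lists, with the number in brackets; red points are genes of the group described, grey points the others, and the vertical position within a row carries no value. Black bars are medians, from -0.14 for the BAG3-dependent list to 0.21 for the selective autophagy receptors, and HSPB8 is the one gene past the dashed 2-fold lines.

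The list of partners in BAG3-dependent tension autophagy, by which stretched actin cross-linkers are removed, held 5 genes of the group, of which 4 passed. It had 13 genes that passed, a median of -0.14, 8 below 0 and 5 above. Without HSPB8, BAG3, STUB1 and SQSTM1, all below 0, its median was 0.043 over 9 genes, 4 of them below 0 and 5 above. HSPB8 was selected on its difference, so this shift of the median is a description. AMOTL1, an angiomotin that sequesters YAP, was at -0.32, with 4 probe sets from -0.32 to 0. TSC2, an inhibitor of mTORC1, was at -0.24, with 2 probe sets from -0.24 to 0.036. The endosomal SNARE STX7 was at 0.24, with 4 probe sets from 0 to 0.25. For aggresome and dynein transport 11 genes passed, with a median of -0.0085. The dynein chain genes DYNC1I2 and DYNC1LI1 were at 0.54 and 0.22. YWHAZ (14-3-3 zeta), of the protein family that binds BAG3, was at -0.17, with 5 probe sets from -0.20 to 0.056. Among 15 genes of lysosomes and chaperone-mediated autophagy the median was -0.019. MITF, a relative of TFEB, went from 10.71 to 11.31, a difference of 0.60, with 3 probe sets from 0.12 to 0.60. TFE3, of the same family, was at -0.29. GFAP, on that list as a partner of LAMP2A, was at -0.30, with 3 probe sets from -0.56 to 0.045.

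Among HSP90 and its co-chaperones 14 genes passed, with 10 below 0, 3 above and a median of -0.067. FKBP5 (FKBP51), a co-chaperone of steroid receptor complexes and a well-known glucocorticoid-induced gene, was the 1 gene of the list past 1.5-fold. It was at 9.77 with the empty vector and at 8.81 with miR-203, 1.94-fold lower, and its 3 probe sets ran from -0.96 to -0.70. Among all genes that passed, 1.08% were 1.5-fold or more lower and 0.721% higher, so a count of 1 says nothing about the list. UNC45A, a myosin chaperone, was at -0.32 with its other probe set at -0.012, and TRAP1, the mitochondrial HSP90, at -0.19. The HSP60 and TRiC chaperonins had a median of 0.060 over 9 genes, with CCT8 and CCT6A each at 0.18 and CCT2 at 0.15. For each of these TRiC subunits the other probe set was below 0, at -0.24, -0.038 and -0.0089.

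Over the 14 lists together, 166 of 191 genes passed, 68 below 0 and 95 above, with a median of 0.033. HSPB8 was the 1 gene 2-fold or more lower and 0 were higher, where 0.27% and 0.105% of the genes that passed were. At 1.5-fold 3 were lower, HSPB8, FKBP5 and UBR1, and 1 was higher, MITF, against shares of 1.08% and 0.721% over the genes that passed. These counts are too small to set the lists apart from those shares. The share of the genes that passed lying below 0 was not counted, so the signs within the lists have no like reference. The median of all genes that passed was 0.013.

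**Figure D4:**
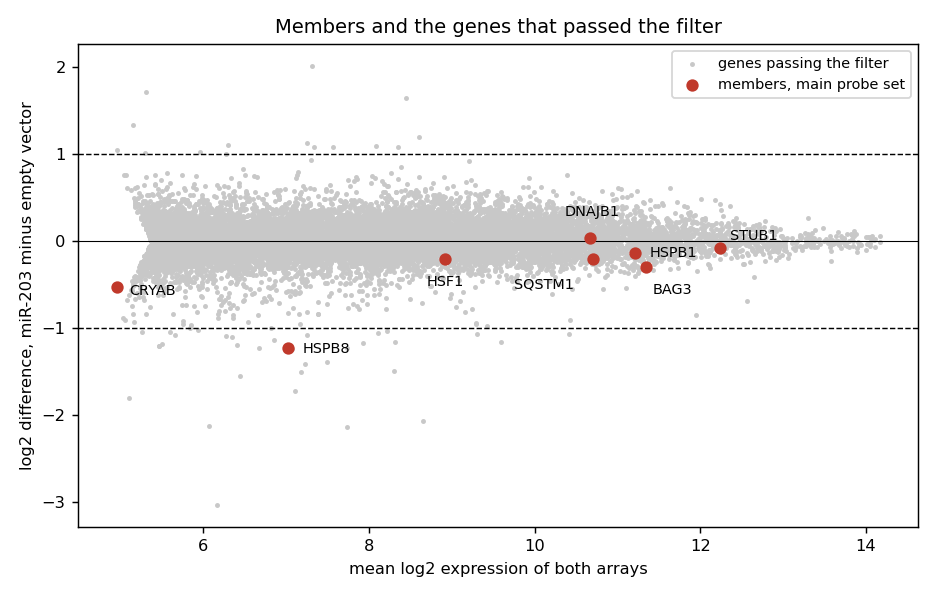
Log2 difference, miR-203 minus empty vector (vertical axis), against the mean log2 expression of both arrays (horizontal axis) for the 13311 genes that passed the filter (grey) and the main probe sets of the 8 genes measured (red; CRYAB did not pass). Dashed lines mark 2-fold; HSPB8, at -1.23, is below the lower one and the other 7 red points lie between the lines.

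The arrays had medians of 5.38 and 5.38 and correlated with r = 0.996 over 54675 probe sets. Markers of the labelled cell line were looked at. The filter was passed by 13311 of 19775 genes, so passing it does not identify a cell type. The 6 mesenchymal genes listed for MDA-MB-231, among them VIM, CD44 and AXL, were all above the filter level with differences from -0.27 to 0.16, and CDH1 and PGR were under that level on both arrays. Other luminal genes, ESR1 among them, were above it, with 6 of the 8 luminal genes passing. The filter was also passed by 4 of 7 fibroblast and 3 of 6 myoepithelial markers. Of the 6 measured blood and endothelial markers 2 passed, CD3E and PECAM1. The summed log2 level over the 8 luminal markers was 58.9 with the empty vector and 58.0 with miR-203. That over the 6 measured myoepithelial markers was 33.2 and 33.3, that over the 7 fibroblast markers 39.7 and 39.1, and that over the 6 blood and endothelial markers 30.4 and 31.0. The 7 fibroblast markers had a median of -0.0039, with 4 below 0 and 3 above. THY1 was lower with HSPB8, at -0.84, LUM was at -0.37, DCN at -0.12, COL1A1 at -0.0039, COL1A2 at 0.19, PDGFRA at 0.21 and PDGFRB at 0.35. LUM, COL1A2 and PDGFRA were under the filter level on both arrays. Of the 6 measured myoepithelial markers, 4 were below 0 and 1 above, with a median of -0.097. ACTA2 was at -0.45, OXTR at -0.19, CNN1 at -0.15, MYLK at -0.047, KRT5 at 0 and KRT14 at 0.94. KRT5, KRT14 and OXTR were under the filter level on both arrays, with KRT14 at 2.72 and 3.66. The part of other cells in the HSPB8 difference was not tested, and fewer cells with a transcript and less of it per cell cannot be told apart in bulk RNA. With each line on its own array, culture, RNA preparation and hybridisation cannot be told apart from miR-203.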

How the data were processed

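Total RNA (6 µg per line) was labelled with biotin and hybridised to Affymetrix arrays, per the labels' protocols. The authors deposited 1 log2 value per probe set and array, made with RMA per the submitters' processing notes; its version, and the genome build, are not given in the sources used here. RMA equalises the distribution of the arrays, so a shift of all mRNAs would be removed. The log2 scale was inferred from the values. Symbols came from the platform annotation, updated through gene identifiers to RefSeq; 1801 probe sets with several symbols named no gene. Each gene took its probe set with the highest mean. Differences, counts and medians were computed with Python 3.11.15 and pandas 2.3.3, with a loess (span 0.3) from statsmodels 0.14.6 as an alternative. The step that takes differences and calls 2-fold was run on simulated data with planted differences and 1 probe set per gene. That simulation did not exercise the filter, the choice among probe sets, the lists or the sequence scan. From each list, up to 3 genes outside the group with the largest differences were named. The genes described, the lists and these rules were chosen with earlier results of these data known. Promoter and microRNA sequences are RefSeq's (GRCh38.p14); 7 of 10 genes matched in the promoter table.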

Additional observations from a re-analysis of the deposited data

How the results depend on the processing

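No paired analysis was possible because there was a single array for each line, and for the same reason none could be left out. A value was taken as moved when it shifted by 0.10 or more, the median SD of the differences within a gene. HSPB8, at -1.23, was at -0.74 by the median or the mean over its probe sets and at -0.25 without the _x_at and _s_at probe sets, and under these 3 settings, and at a 3-fold threshold, 0 genes of the group were 2-fold (or 3-fold) lower. HSPB8 was below 0 in all 8 alternatives. Both of its probe sets were below 0, so choosing or averaging between them could not change the sign. HSPB1, BAG3, DNAJB1 and STUB1 had no probe set left without _x_at and _s_at, and 3 genes of the group that passed were then below 0, against 6. SQSTM1 was then at -0.35. DNAJB1 changed sign in 2 of 7 alternatives, to -0.0035. CRYAB was at 0 with values raised to the filter level. Counting shared probe sets too, an alternative chosen after seeing the data, left 1 gene lower and 0 higher. Over all genes, 36 were lower and 14 higher. A 1.5-fold threshold gave 144 and 96, a 3-fold threshold 6 and 3, and the stricter filter, set at percentile 75, gave 20 and 8. By the median or the mean over probe sets 24 were lower and 9 higher. Of the list medians, the BAG list went from 0.11 to 0 by the median over probe sets. The small heat shock protein list went from -0.11 to 0.061 without _x_at and _s_at probe sets and to -0.69 with the stricter filter. The list of heat shock factors and HSF1 partners went to 0.22 without _x_at and _s_at probe sets. The other list medians under these alternatives moved by less than 0.10.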
